A study of Mus musculus with 12 samples.

Results

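The aryl hydrocarbon receptor and its cytochrome P450 1 targets were followed as 7 genes in mouse liver, taken by name from the transcript table: Ahr, Arnt, Ahrr, Tiparp, Cyp1a1, Cyp1a2 and Cyp1b1. They are 7 of the 22170 gene names in the table, and 50 transcripts carry their names. The values came from whole livers of 12 male C57BL/6J mice aged 21 weeks, 3 mice in each of 4 groups fed for 16 weeks. The ND group received a normal diet, the HFD group a high-fat diet, the CLE group the same high-fat diet with 1.5% (w/w) ethanol extract of chrysanthemum leaf, and the LU group the high-fat diet with 0.003% (w/w) luteolin, a flavone of that leaf. The 3 mice of each group were picked as representative of larger groups, as the study's methods state. The CLE and LU diets differed in agent and in dose, and both were fed on top of the high-fat diet, so the HFD group is their diet control.

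The aryl hydrocarbon receptor is a ligand-activated transcription factor that rests in the cytosol with chaperones. When a ligand such as a polycyclic aromatic compound, a tryptophan product or certain flavonoids binds, the receptor moves to the nucleus, pairs with ARNT and binds DNA at xenobiotic response elements, whose core letters are GCGTG. Its classical targets in liver include Cyp1a1, which is very low in unexposed liver and strongly inducible, Cyp1a2, which hepatocytes around the central vein also make without any inducer, and Ahrr and Tiparp, whose products restrain the receptor in turn.

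Cyp1a1 and Cyp1a2 lie head to head on chromosome 9, with 13958 bases between their RefSeq start sites, and Ahrr and Tiparp are the feedback genes. The promoters of these 4 genes are shown because they are the response-element genes whose levels are compared below. Each window holds 300 bases from RefSeq on GRCm38.p6, 250 before the start and 50 after it, printed 5′ to 3′ along the gene's strand. Capitals mark GCGTG or its reverse complement CACGC. Cyp1a1 is at chr9:57697363-57697662 on the plus strand, Cyp1a2 at chr9:57683606-57683905 on the minus strand, Ahrr at chr13:74292282-74292581 on the minus strand and Tiparp at chr3:65528197-65528496 on the plus strand.
Cyp1a1: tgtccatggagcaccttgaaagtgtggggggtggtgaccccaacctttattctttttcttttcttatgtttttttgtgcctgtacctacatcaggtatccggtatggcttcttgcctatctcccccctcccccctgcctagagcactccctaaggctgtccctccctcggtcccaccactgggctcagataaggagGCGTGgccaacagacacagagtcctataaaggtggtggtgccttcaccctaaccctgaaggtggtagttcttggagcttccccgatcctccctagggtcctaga
Cyp1a2: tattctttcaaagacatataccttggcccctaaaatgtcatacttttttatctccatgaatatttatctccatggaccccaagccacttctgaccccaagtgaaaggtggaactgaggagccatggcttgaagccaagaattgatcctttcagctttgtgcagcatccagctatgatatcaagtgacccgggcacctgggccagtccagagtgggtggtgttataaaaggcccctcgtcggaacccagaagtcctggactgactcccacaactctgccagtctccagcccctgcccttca
Ahrr: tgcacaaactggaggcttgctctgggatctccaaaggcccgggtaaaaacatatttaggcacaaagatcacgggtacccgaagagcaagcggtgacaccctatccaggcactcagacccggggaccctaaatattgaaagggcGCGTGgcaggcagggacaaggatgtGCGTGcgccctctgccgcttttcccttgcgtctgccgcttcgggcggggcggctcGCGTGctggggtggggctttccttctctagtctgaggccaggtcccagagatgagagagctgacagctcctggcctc
Tiparp: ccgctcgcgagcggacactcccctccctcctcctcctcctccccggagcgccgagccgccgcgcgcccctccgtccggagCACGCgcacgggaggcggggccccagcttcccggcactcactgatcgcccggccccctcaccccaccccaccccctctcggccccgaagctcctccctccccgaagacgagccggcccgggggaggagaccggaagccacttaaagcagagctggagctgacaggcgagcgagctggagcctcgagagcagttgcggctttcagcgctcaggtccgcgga

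RefSeq promoters were matched for 6 of the 7 genes. The Cyp1a1 window has 1 match, 54 bases before the start, and the Ahrr window has 3, at 107, 82 and 27 bases before it. Tiparp has 1 match on the reverse strand, 170 bases before the start, Cyp1b1 has 1 on the reverse strand at 76 bases and Arnt has 1 at 29 bases. The Cyp1a2 window has none, which says only that these letters are not in this window. Of 32851 mouse promoters of the same length, 32.4% hold the 5 letters on either strand, so a match is a description and not a site.

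Levels were given as FPKM, the fragments of a transcript scaled to its length and to the fragments mapped in the library, summed over the transcripts of a gene. Averaged over the 12 livers, Cyp1a2 stood at rank 509 of the 22170 names, Ahr at 4478, Arnt at 4692, Tiparp at 9759, Cyp1b1 at 12223, Cyp1a1 at 12847 and Ahrr at 14024. Ahr, with a mean of 12.4 FPKM, and Arnt, with 11.6 FPKM, stood close to each other, and their ranges over the livers overlapped. Cyp1b1, at 0.2999 FPKM, and Cyp1a1, at 0.185 FPKM, also overlapped. The FPKM of Cyp1a2 was 437 to 1762 times that of Cyp1a1 in the same liver. Genes were tested where the mean was at least 0.5 FPKM, which 11566 genes reached, among them Ahr, Arnt, Tiparp and Cyp1a2. Ahrr, Cyp1a1 and Cyp1b1 were below it and are described by their values. Groups were compared with limma on log2(FPKM + 1), with p-values adjusted over all tested genes and a threshold of 0.05.

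As a check of the tissue, 7 of the 8 hepatocyte markers were above 0.5 FPKM in every liver, while albumin was listed at 0 in 11 of the 12, so a value of 0 in the table can be a failed estimate. The table gives no read counts, so depth is unknown, and the FPKM summed over named genes ranged from 1698823 to 5575486 per liver. In bulk tissue, fewer cells of a type and less RNA per cell cannot be told apart. Most genes were slightly higher under the high-fat diet as deposited, with a median log2 difference of 0.11 between HFD and ND over all tested genes, and median-of-ratios scaling moved this median to -0.01. With that scaling, the share of higher genes among those called between HFD and ND went from 82.6% to 55.1%, between CLE and ND from 77.5% to 42.9%, and between LU and ND from 74.7% to 40.6%. The deviation of each library also went with the GC content of the genes, with Spearman coefficients over 11507 genes from -0.37 to -0.14 in the ND and HFD livers and from 0.16 to 0.48 in the CLE and LU livers, which cannot be told apart from the 2 supplements.

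**Figure D1:**
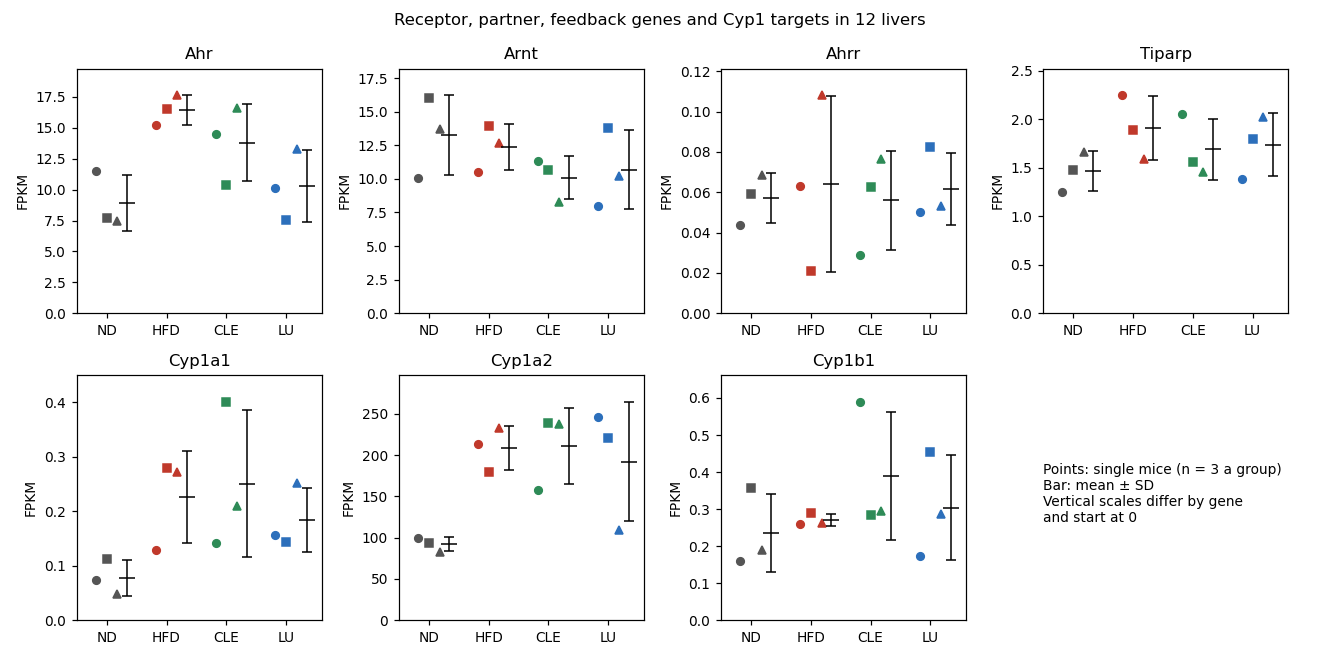
FPKM of the 7 genes in each of the 12 livers, by group (ND, HFD, CLE, LU). Points are single mice, the bar beside them is the mean with its SD (n = 3), the vertical scales differ and start at 0. All 9 livers on a high-fat diet lie above the 3 ND livers for Cyp1a1 and Cyp1a2, and the 3 HFD livers lie above the ND and LU livers for Ahr.

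Between HFD and ND livers, the receptor and its constitutive liver target were both higher under the high-fat diet, by 1.79-fold for Ahr and 2.24-fold for Cyp1a2 on the scale of FPKM + 1. The partner Arnt and the feedback gene Tiparp did not pass the test. Of the 4 genes tested, 2 were called, both higher, where 12.1% of all tested genes were called in either direction and 9.99% as higher in HFD.

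Ahr, which encodes the receptor itself (ENSMUSG00000019256, chr12:35497974-35535038, minus strand), was at 11.5, 7.74 and 7.50 FPKM in ND mice 2, 3 and 4. In HFD mice 12, 15 and 18 it was at 15.2, 16.5 and 17.7 FPKM. All 3 HFD livers were above all 3 ND livers, as was so for 29.1% of tested genes, and the spread was smaller in the HFD group. The mean was 8.92 ± 2.27 (SD, n = 3) FPKM in ND and 16.5 ± 1.20 (SD, n = 3) FPKM in HFD livers. The log2 difference of 0.84 (SE 0.21, 95% interval 0.39 to 1.29) had an adjusted p of 0.021 by limma. It became 0.69 with an adjusted p of 0.062 after median-of-ratios scaling, and 0.72 with 0.058 after quantile normalization. The call for Ahr was also lost without ND mouse 3 (adjusted p = 0.065), ND mouse 4 (0.081), HFD mouse 15 (0.056) or HFD mouse 18 (0.075).

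Cyp1a2, which encodes the hepatic P450 that metabolises caffeine and arylamines (ENSMUSG00000032310, chr9:57676937-57683703, minus strand), was at 99.9, 94.1 and 83.1 FPKM in the ND livers. It was at 213, 179.8 and 234 FPKM in the HFD livers. The groups were far apart relative to their spread, with means of 92.3 ± 8.53 (SD, n = 3) and 209 ± 27.1 (SD, n = 3) FPKM. The log2 difference was 1.16 (SE 0.26, 95% interval 0.61 to 1.72, adjusted p = 0.012 by limma). With median-of-ratios scaling Cyp1a2 still differed, by 1.01. With the score of 8 listed clock genes as a covariate the difference of 0.85 had an adjusted p of 0.16. That fit called 490 of all tested genes in place of 1400, and the 490 included Ahr. Without HFD mouse 18 the Cyp1a2 difference was 1.08 with an adjusted p of 0.050, just outside the threshold.

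Cyp1a1, the inducible P450 used as the marker of receptor activation (ENSMUSG00000032315, chr9:57687928-57703824, plus strand), was near the bottom of the expressed range in every liver. It was at 0.0730, 0.112 and 0.0471 FPKM in ND livers and at 0.129, 0.279 and 0.271 FPKM in HFD livers. Every HFD value was above every ND value, although all of them were below 0.5 FPKM. Such a gap was present for 29.1% of tested genes, and no share was computed for genes below the filter, where Cyp1a1 lies. The means were 0.0773 ± 0.0325 (SD, n = 3) and 0.226 ± 0.0843 (SD, n = 3) FPKM, a ratio of 2.93. In a fit without the filter and with a pseudocount of 0.1 FPKM, an alternative chosen after seeing the data, the log2 difference of Cyp1a1 was 0.86 (unadjusted p = 0.014, adjusted p = 0.11 by limma). Cyp1a1 and Cyp1a2 share an exact stretch of 137 bases, longer than a single 100-base read, so a single read can fit both genes. Whether whole paired fragments do depends on their length, which is not given in the sources used here. The low Cyp1a1 values are uncertain, and the part of Cyp1a2 fragments in them was not tested.

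The remaining P450, Cyp1b1, acts on steroids and polycyclic compounds mainly outside the liver (ENSMUSG00000024087, chr17:79701537-79715061, minus strand). It was at 0.160, 0.357 and 0.190 FPKM in ND livers and at 0.259, 0.289 and 0.263 FPKM in HFD livers. The HFD values lay inside the ND range. For Cyp1b1 the unfiltered fit with the pseudocount of 0.1 FPKM gave a log2 difference of 0.18 (95% interval -0.51 to 0.88).

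Arnt, the dimerisation partner (ENSMUSG00000015522, chr3:95434388-95497240, plus strand), was at 10.1, 16.0 and 13.7 FPKM in ND and at 10.5, 14.0 and 12.6 FPKM in HFD livers. The groups overlapped almost fully, and the log2 difference was -0.08 (95% interval -0.51 to 0.35, adjusted p = 0.84 by limma). Tiparp, an ADP-ribosyltransferase that modifies the receptor (ENSMUSG00000034640, chr3:65528410-65555518, plus strand), was at 1.25, 1.47 and 1.67 FPKM in ND and at 2.25, 1.89 and 1.59 FPKM in HFD livers. HFD mouse 18 lay below ND mouse 4, and the log2 difference of Tiparp was 0.24 (95% interval -0.06 to 0.53, adjusted p = 0.29 by limma). Ahrr, the repressor that competes with the receptor for ARNT (ENSMUSG00000021575, chr13:74211118-74292331, minus strand), was at 0.0439, 0.0590 and 0.0688 FPKM in ND and at 0.0629, 0.0210 and 0.108 FPKM in HFD livers. The HFD values lay on both sides of the ND range at levels near 0. An antisense gene, 4931440P22Rik, overlaps the start of Tiparp, and its transcripts there averaged at most 0.102 FPKM, against 1.70 FPKM for Tiparp.

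Next, CLE and LU livers were compared with HFD livers, the question being whether a flavone or a leaf extract that contains it moved the receptor's genes away from the diet control. None of the 4 tested genes was called by limma in either comparison, where 6.03% of tested genes were called for CLE and 1.03% for LU. At an unadjusted p under 0.05, none of the 4 passed for CLE and 1, Ahr, passed for LU. The comparisons of CLE and LU with HFD share the HFD livers, so their values stand side by side and are not independent.

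Ahr was at 14.5, 10.4 and 16.6 FPKM in CLE mice 2, 4 and 11, and at 10.1, 7.50 and 13.3 FPKM in LU mice 2, 3 and 8. CLE mice 2 and 4 lay below the HFD livers, while CLE mouse 11 lay within their range. All 3 LU livers were below all 3 HFD livers, as was so for 16.9% of tested genes, and they overlapped the ND livers. The means were 13.8 ± 3.13 (SD, n = 3) FPKM in CLE and 10.3 ± 2.89 (SD, n = 3) FPKM in LU livers. Against HFD, the log2 difference of Ahr was -0.26 for CLE (95% interval -0.71 to 0.19, adjusted p = 0.42 by limma) and -0.66 for LU (95% interval -1.11 to -0.21, unadjusted p = 0.0078, adjusted p = 0.13). The LU livers also differed in adipocyte markers, whose summed level over 3 genes was 0.827 to 1.27 FPKM in LU livers and at most 0.172 FPKM in the other groups. Of these, Lep, the leptin gene, was above 0 in the 3 LU livers alone, at 0.176, 0.139 and 0.187 FPKM, and the part of such cells in the LU values was not tested.

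The sum for Ahr covers 8 transcripts, of which the known one that spans the whole gene held 32.0% of the mean. This transcript was at 4.99, 3.94 and 3.36 FPKM in ND, 4.37, 7.47 and 7.04 in HFD, 4.64, 3.08 and 4.01 in CLE, and 1.17, 0.649 and 2.83 FPKM in LU livers. All 3 LU values of this transcript lay below those of the other 9 livers, a description for which no share over all transcripts was computed. An assembled transcript of Ahr with 28.1% of the mean went another way. It was at 2.51, 0.0878 and 1.06 FPKM in ND, 3.45, 1.41 and 3.57 in HFD, 7.07, 2.90 and 6.57 in CLE, and 2.59, 4.29 and 6.25 FPKM in LU livers. The means of this transcript were 1.22 FPKM in ND, 2.81 in HFD, 5.51 in CLE and 4.38 FPKM in LU livers, so they were highest in the 2 supplemented groups. Taken alone in place of the sum, the spanning Ahr transcript differed between LU and HFD by -1.58 on the log2 scale (adjusted p = 0.032 by limma) and between HFD and ND by 0.50 (adjusted p = 0.36). How Cufflinks shared fragments among the 8 overlapping transcripts cannot be checked from the deposited values.

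Cyp1a2 was at 158, 239 and 238 FPKM in CLE livers, and at 246, 221 and 109.7 FPKM in LU livers. LU mouse 8 and CLE mouse 2 lay below all HFD livers and the other 4 lay above the HFD median. The means were 211 ± 46.4 (SD, n = 3) and 192 ± 72.6 (SD, n = 3) FPKM. Cyp1a2 differed from HFD by 0.00079 on the log2 scale in CLE livers (95% interval -0.55 to 0.55) and by -0.19 in LU livers (95% interval -0.75 to 0.36), and these intervals leave room for changes of that size. Without LU mouse 8 the sign of the LU difference turned, to 0.17.

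Cyp1a1 was at 0.141, 0.401 and 0.210 FPKM in CLE and at 0.157, 0.144 and 0.251 FPKM in LU livers. Both groups overlapped the HFD livers, with means of 0.251 ± 0.135 (SD, n = 3) and 0.184 ± 0.0584 (SD, n = 3) FPKM. The highest value in the 12 livers was CLE mouse 4. In the unfiltered fit with a pseudocount of 0.1 FPKM, Cyp1a1 differed from HFD by 0.07 in CLE (95% interval -0.57 to 0.72) and by -0.18 in LU livers (95% interval -0.83 to 0.46).

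Cyp1b1 was at 0.590, 0.284 and 0.296 FPKM in CLE and at 0.172, 0.454 and 0.287 FPKM in LU livers. CLE mice 2 and 11 and LU mouse 3 lay above all HFD livers, CLE mouse 4 and LU mouse 8 within their range and LU mouse 2 below it. Its log2 difference from HFD in the same unfiltered fit was 0.35 for CLE (95% interval -0.34 to 1.04) and 0.07 for LU (95% interval -0.63 to 0.76).

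Arnt was at 11.3, 10.7 and 8.25 FPKM in CLE and at 7.99, 13.8 and 10.2 FPKM in LU livers. The log2 difference of Arnt from HFD was -0.27 for CLE (95% interval -0.71 to 0.16) and -0.22 for LU (95% interval -0.65 to 0.21). Tiparp was at 2.05, 1.56 and 1.46 FPKM in CLE and at 1.39, 1.80 and 2.03 FPKM in LU livers. Both groups overlapped the HFD livers and reached below them, and the log2 difference of Tiparp was -0.11 for CLE (95% interval -0.41 to 0.18) and -0.09 for LU (95% interval -0.38 to 0.20). Ahrr stayed below 0.1 FPKM in all 6 livers, at 0.0289, 0.0624 and 0.0767 FPKM in CLE and 0.0501, 0.0823 and 0.0530 FPKM in LU.

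CLE and LU livers were also set against each other. None of the 4 tested genes was called by limma, where 0.00865% of tested genes were, and none passed an unadjusted p of 0.05. The CLE minus LU log2 difference was 0.40 for Ahr (95% interval -0.05 to 0.85), -0.06 for Arnt (95% interval -0.49 to 0.38), 0.19 for Cyp1a2 (95% interval -0.36 to 0.75) and -0.02 for Tiparp (95% interval -0.32 to 0.27). These intervals leave room for sizeable differences in either direction for Cyp1a2. For all 7 genes the CLE and LU livers overlapped, while 7.08% of tested genes did not overlap.

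**Figure D2:**
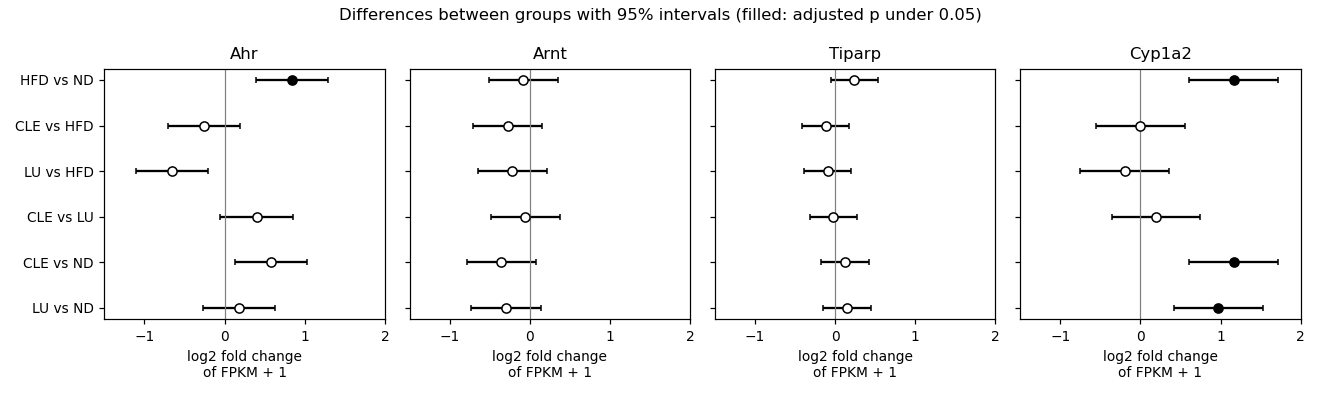
Log2 differences of FPKM + 1 with 95% intervals for Ahr, Arnt, Tiparp and Cyp1a2 in 6 comparisons of the 4 groups (n = 3 mice each). Filled circles have an adjusted p under 0.05 by limma. Ahr is filled only for HFD against ND, and Cyp1a2 for HFD, CLE and LU each against ND.

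Against ND, both supplemented groups were compared as well, and these comparisons share the ND livers with the diet comparison. Cyp1a2 was higher in CLE livers by 1.17 on the log2 scale (SE 0.26, adjusted p = 0.0089 by limma) and in LU livers by 0.97 (SE 0.26, adjusted p = 0.027). It was the 1 gene of the 4 called in each, where 27% and 14.9% of tested genes were called, 20.9% and 11.2% as higher. All 3 CLE and all 3 LU livers exceeded all ND livers for Cyp1a2 and for Cyp1a1, as was so for 32.2% and 29.4% of tested genes. Cyp1a1 is not among the tested genes, and no share was computed for genes at its level. For Cyp1a2 the nearest was LU mouse 8, at 109.7 FPKM against 99.9 FPKM in ND mouse 2. The Cyp1a2 call in LU livers was lost without ND mouse 2, 3 or 4, or without LU mouse 2 or 3, with adjusted p from 0.058 to 0.092. It was also lost after median-of-ratios scaling (0.84, adjusted p = 0.057). With the clock score as a covariate Cyp1a2 differed by 0.57 in CLE livers (adjusted p = 0.78) and by 0.43 in LU livers (adjusted p = 0.84). That covariate left few calls over all tested genes, 6 in place of 3119 for CLE and 16 in place of 1727 for LU. The score itself differed by group, from -1.615 to -0.3571 in ND livers and from 0.3077 to 1.391 in CLE and LU livers. The score therefore overlaps with the groups, and fitting it can make the group difference of a gene smaller or larger.

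Ahr in CLE livers was 0.58 above ND on the log2 scale (unadjusted p = 0.016, adjusted p = 0.056 by limma), and in LU livers 0.18 above it (95% interval -0.27 to 0.63, adjusted p = 0.57). The CLE value passed the threshold without ND mouse 2 (adjusted p = 0.035), CLE mouse 4 (0.038), LU mouse 3 (0.040) or LU mouse 8 (0.042), and for the spanning transcript alone it was -0.05. In LU livers the spanning Ahr transcript alone was lower than in ND, with a log2 difference of -1.08 (adjusted p = 0.035 by limma), the opposite direction to the sum. Without LU mouse 8 the summed Ahr in LU livers differed from ND by -0.0052. Over the 4 groups together, the moderated F test called Ahr (adjusted p = 0.035) and Cyp1a2 (adjusted p = 0.017), where 24.4% of tested genes were called, and neither Arnt (0.37) nor Tiparp (0.50). The exact permutation test of the F statistic on FPKM, over 15400 splits of the 12 mice and without adjustment, gave p = 0.027 for Ahr, 0.058 for Cyp1a2, 0.14 for Cyp1a1, 0.38 for Arnt, 0.39 for Tiparp, 0.51 for Cyp1b1 and 0.98 for Ahrr.

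The other genes of the pathway were taken from lists of chaperones, DNA-binding partners, coactivators, further targets and enzymes that work with the P450s or make tryptophan ligands. Of the 29 tested genes, 11 were higher and 0 lower in HFD than in ND livers, with a median log2 difference of 0.22 against 0.11 over all genes, and where 9.99% of all tested genes were called higher and 2.11% lower. With median-of-ratios scaling 7 were higher and 2 lower, Arntl and Clock, and without ND mouse 2 or HFD mouse 18 the number higher was 6, and with the clock score as a covariate it was 5. In CLE against HFD, 0 were higher and 3 lower, where 2.74% of all tested genes were higher and 3.29% lower. In LU against HFD, 0 were higher and 3 lower, where 0.303% were higher and 0.726% lower. The CLE count of lower genes was 0 without HFD mouse 15 or CLE mouse 4, and the LU count was 0 without HFD mouse 15 or 18 or LU mouse 2 or 3 and after GC-content correction. Both were 0 with the clock score as a covariate, where 9 of all tested genes were called for CLE and 16 for LU.

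Among further targets, the 7 tested genes were all called higher in HFD than in ND livers, where 9.99% of all tested genes were. Their median log2 difference was 0.84, against 0.11 over all genes. Most encode conjugating or redox enzymes, beside a lysosomal transporter and NRF2, the factor encoded by Nfe2l2. Several also respond to NRF2. The list was chosen with earlier results of these data known, so these counts give no independent support. Gsta1, a glutathione transferase, was at 0.607, 0.726 and 0.545 FPKM in ND and at 27.0, 44.8 and 54.3 FPKM in HFD livers. Its CLE values were 24.7, 10.7 and 17.6 FPKM and its LU values 12.7, 13.7 and 20.0 FPKM, below all HFD livers and above all ND livers in every case. Gsta1 was higher in HFD than in ND livers by 4.67 (adjusted p = 2.9e-06 by limma), and it fell by 1.22 in CLE (adjusted p = 0.035) and by 1.35 in LU livers (adjusted p = 0.042) on the log2 scale. The Gsta family shares sequence, so the share of Gsta1 in these fragments is uncertain.

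Nqo1, a quinone reductase, was at 4.20, 4.48 and 4.63 FPKM in ND, 10.99, 13.4 and 10.9 in HFD, 9.63, 6.80 and 7.001 in CLE, and 5.31, 4.87 and 8.56 FPKM in LU livers. It lay between the ND and HFD livers in all 6 supplemented mice. Nqo1 was higher in HFD by 1.23 (adjusted p = 0.0010 by limma), fell by 0.85 in LU against HFD (adjusted p = 0.043), and differed by -0.55 in CLE, which did not pass. Ugdh, which makes UDP-glucuronic acid for glucuronidation, was at 50.5, 43.7 and 39.9 FPKM in ND, 100.4, 113 and 103 in HFD, 74.4, 84.8 and 74.4 in CLE, and 69.6, 65.9 and 65.4 FPKM in LU livers. The values of the 4 groups did not overlap for Ugdh, with ND lowest, then LU, CLE and HFD. The difference between CLE and LU was not called (0.21, adjusted p = 0.97 by limma). No share over all genes was computed for this order, or for the middle position of the supplemented livers in Gsta1 and Nqo1. Ugdh was higher in HFD by 1.23 (adjusted p = 3.2e-05), and it fell by 0.44 in CLE (adjusted p = 0.039) and by 0.65 in LU livers (adjusted p = 0.015).

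The other 4 passed between HFD and ND and did not pass in CLE or LU against HFD. They were Xdh, the xanthine dehydrogenase (0.84, adjusted p = 0.0050), the lysosomal transporter Slc46a3 (0.76, 0.015), Nfe2l2 (0.56, 0.0067) and the glucuronosyltransferase Ugt1a6 (0.44, 0.016). Ugt1a6 shares exons with the other Ugt1a genes and was no longer called after median-of-ratios scaling (0.28, adjusted p = 0.14), which left 6 of the 7. With the clock score as a covariate 4 of the 7 were called, and 5 to 7 with single mice left out. In CLE against HFD and in LU against HFD, all 7 log2 differences were negative, with medians of -0.44 and -0.37 against 0.02 and -0.02 over all genes. The counts of called targets were 2 for CLE and 3 for LU, all lower, where 3.29% and 0.726% of all tested genes were called lower. The CLE count ranged from 0 to 3 with single mice left out and was 0 without HFD mouse 15 or 18 or CLE mouse 4 or 11, and the LU count was 0 without HFD mouse 15 or 18 or LU mouse 2 or 3. The CLE and LU counts were 1 and 0 after GC-content correction, and 1 and 1 with the transcript of highest mean. In fits of the 2 groups alone they were 0 and 2. Without the filter they were 0 and 1, with a pseudocount of 1 or of 0.1 FPKM. Both counts were 0 with the clock score as a covariate, which left 9 and 16 calls over all tested genes. Aldh3a1 and Cyp2s1, also on the list, were at most 0.263 FPKM in any liver and were not tested.

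**Figure D3:**
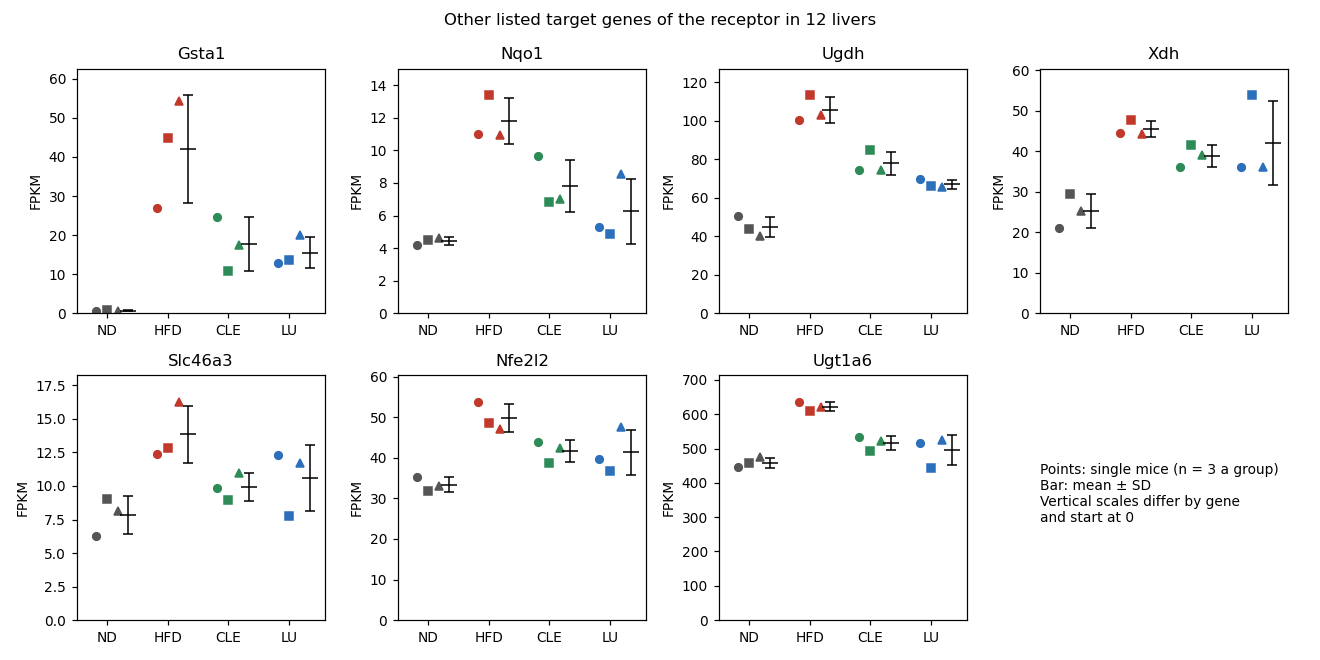
FPKM of the 7 tested genes of the further-target list in each of the 12 livers, by group. Points are single mice and the bar is the mean with its SD (n = 3), on vertical scales that differ and start at 0. The 3 HFD livers lie above the 3 ND livers for every gene, and CLE and LU livers lie between them for Gsta1, Nqo1 and Ugdh.

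Of the coactivators, 1 of 6 was higher in HFD than in ND livers, the chromatin remodeller Smarca4, by 0.48 (adjusted p = 0.032 by limma), where 9.99% of all tested genes were higher. Of the partner and tryptophan enzymes, 2 of 7 were higher: cytochrome b5, encoded by Cyb5a, by 0.68 (adjusted p = 0.030), and Ido2, which makes kynurenine, by 0.72 (adjusted p = 0.011). After median-of-ratios scaling Smarca4 (adjusted p = 0.11) and Cyb5a (0.14) were no longer called. Ido2 was at 28.0, 31.0 and 29.9 FPKM in HFD and at 16.2, 12.6 and 18.03 FPKM in CLE livers, so it fell by 0.90 (adjusted p = 0.016). This call for Ido2 was lost without HFD mouse 15 (adjusted p = 0.085) or CLE mouse 4 (0.056), with the clock score as a covariate (0.17) and for its transcript of highest mean alone (-0.38, 0.12).

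None of the 5 tested bHLH-PAS partners, the family to which the receptor and ARNT belong, was called between HFD and ND as deposited, and 2 were after the scaling named above. Hif1a, Arntl and Clock were lower than in ND both in CLE livers, by -0.41, -1.01 and -0.87 (adjusted p = 0.043, 0.016 and 0.0037 by limma), and in LU livers, by -0.53, -1.25 and -0.99 (adjusted p = 0.027, 0.012 and 0.0032). The weakest of these was Hif1a, whose CLE call was lost without any 1 of 8 mice, ND mouse 2, 3 or 4, HFD mouse 12, 15 or 18 or CLE mouse 4 or 11 (adjusted p from 0.053 to 0.14), and whose LU call was lost without ND mouse 2 or 4 or LU mouse 2 or 3 (0.065 to 0.096). The Arntl call in CLE livers was lost without ND mouse 4 (adjusted p = 0.065), and Clock changed sign, to 0.45 in CLE and 0.22 in LU livers, for its transcript of highest mean alone. With the clock score as a covariate none of the 3 was called in either comparison, where 6 and 16 of all tested genes were. Over all tested genes, 6.08% were lower in CLE and 3.78% in LU livers than in ND. Arntl and Clock are core clock genes, and the summed level of 8 other clock genes ranged from 77.3 to 152.6 FPKM in ND, 108.6 to 178.7 in HFD, 181.8 to 294.3 in CLE and 180.0 to 243.1 FPKM in LU livers. The time of day at which each liver was taken is not given in the sources used here, and its part in these differences was not tested.

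Markers of the pericentral zone and of some non-parenchymal cells moved along with the diet. Between HFD and ND, 0 of 8 general hepatocyte and 0 of 3 cholangiocyte markers were called, where 12.1% of all tested genes were. Albumin, 1 of these 8, was at 0 in every ND and HFD liver and could not be called. Lists this short do not show that such markers stayed unchanged. Against ND, 1 general hepatocyte marker was lower and 0 were higher in CLE livers, and likewise in LU livers. Over all tested genes, 6.08% and 3.78% were lower. Of the 8 pericentral hepatocyte markers, 5 were higher in HFD than in ND livers, where 9.99% of all tested genes were. Among the 5 were the glutamine synthetase gene Glul, by 0.96 (adjusted p = 0.0020 by limma), and Lgr5, a receptor in Wnt signalling, by 1.15 (adjusted p = 0.00095). The summed level of the 8 pericentral markers ranged from 6922 to 7699 FPKM in ND and from 9327 to 11190 FPKM in HFD livers. It was 9269 to 10280 FPKM in CLE and 9225 to 11670 FPKM in LU livers, and none of the 8 was at 0 in any liver. Most of this sum was Cyp2e1, with means of 5090 FPKM in ND and 6902 FPKM in HFD livers. Cyp2e1 was not called between HFD and ND (adjusted p = 0.087 by limma). Against ND, 4 of the 8 were higher in CLE and 5 in LU livers, where 20.9% and 11.2% of all tested genes were. Of the 7 periportal markers, 0 were higher and 1 lower in HFD than ND, where 9.99% and 2.11% of all tested genes were. The lower 1 was the gluconeogenic Pck1, by -0.67 (adjusted p = 0.019 by limma). The periportal sums overlapped, from 2783 to 4026 FPKM in ND and 2898 to 3321 FPKM in HFD livers. Cyp1a2 is itself a gene of the pericentral zone, and the part of zonation in its difference was not tested.

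**Figure D4:**
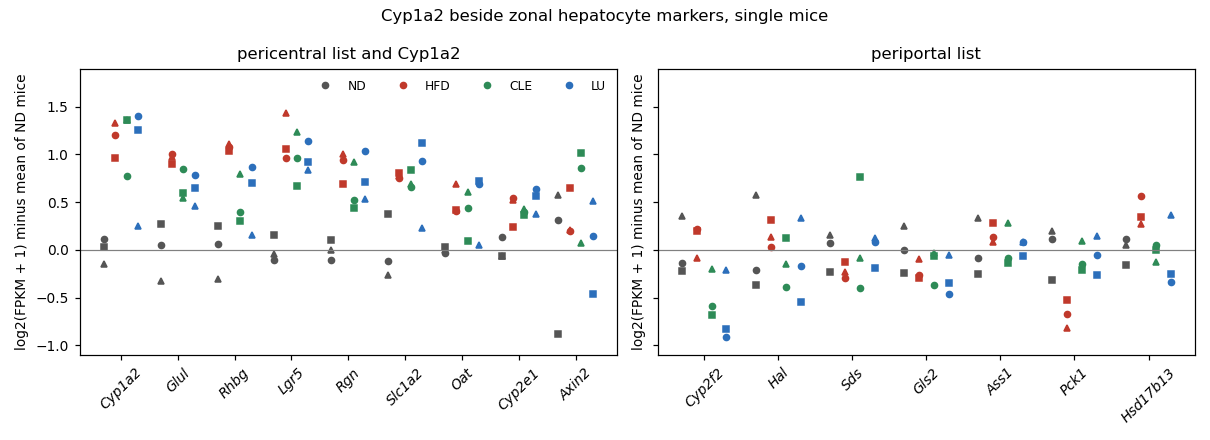
Difference of log2(FPKM + 1) in each of the 12 livers from the mean of the ND mice, for Cyp1a2 and 8 pericentral markers (left) and 7 periportal markers (right). Points are single mice, with colour for the group and shape for the mouse within it. Cyp1a2, Glul, Rhbg, Lgr5, Rgn and Slc1a2 are higher in the HFD livers, and their periportal markers lie on both sides of 0.

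Ahr is also made by non-parenchymal cells. Of the 8 markers of stellate cells and fibroblasts, 5 were higher in HFD than in ND livers, where 9.99% of all tested genes were, and their sums ranged from 83.3 to 114 FPKM in ND, 142 to 178 in HFD, 140.0 to 220.2 in CLE and 141 to 184 FPKM in LU livers. Of the 6 Kupffer cell and macrophage markers, 3 were higher, with sums of 99.7 to 112 FPKM in ND, 145 to 218 in HFD, 144 to 180.3 in CLE and 109.5 to 187 FPKM in LU livers. Of the 6 endothelial markers 1 was higher, with sums of 67.5 to 80.2 FPKM in ND and 86.1 to 90.7 FPKM in HFD livers. None of the markers on these 3 lists was at 0 in any liver, and their part in the Ahr difference was not tested.

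The genes most like each tested gene across the livers were named by the Pearson correlation of log2(FPKM + 1) over 12 livers, among 10609 genes that averaged 1 FPKM or more. The 12 points share the 4 diets and the libraries, so these coefficients are descriptions. For Ahr they were Pno1 (0.93), Ankrd40 (0.92) and Gclm (0.91), the last being a subunit of the enzyme that starts glutathione synthesis. For Cyp1a2 they were Cyp2a5 (0.91), a P450 of coumarin metabolism, BC024139 (0.90) and VTCN1 (0.90). For Arnt they were Rlf (0.93), Trim56 (0.92) and Synrg (0.92), and for Tiparp they were Mkl2 (0.90), Rab23 (0.90) and Ppic (0.86).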

How the data were processed

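RNA from 12 livers was sequenced as paired 100-base reads. Per the labels' processing notes and the study's methods, the authors used CASAVA 1.8.2, TopHat2 2.0.12 with Bowtie2 2.2.3, and Cufflinks 2.2.1. The deposited unit is FPKM per transcript, as the authors' assembly gave it. The genome build is not given in the sources used here. Coordinates and gene identifiers are those of GENCODE M21 on GRCm38, which picks the same rows as the deposited names for all 7 genes. The table holds 152210 transcripts, of which 73424 were assembled by the authors, and 6316 carry no gene name and were left out. Whether the FPKM include further library scaling is not given in the sources used here.

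FPKM were summed per gene name. Genes averaging 0.5 FPKM or more were tested on log2(FPKM + 1) with limma 3.58.1 (R 4.3.3, trended variance), a coefficient per group and all 12 mice, and Benjamini-Hochberg adjustment over 11566 genes at 0.05. Fold changes on this scale understate those of low genes. FPKM are estimates shared out among overlapping transcripts, so counts and counting errors cannot be given. On data simulated with independent noise for each gene, 195 of 200 genes with a log2 change of 1.5 between HFD and ND were recovered among 11566 genes. Beside them 8 other genes were called, and 0 were called with no change. The planted change is larger than those of Ahr and Cyp1a2, and the noise held no pattern shared within a library. The simulation thus checks the code and gives neither the sensitivity nor the false calls in these livers. Exact permutation tests covered all members, and 3 mice against 3 cannot go below 0.1 in such a test. Named genes are the 7 members, listed pathway genes that passed in a comparison (some items are not reported here), and the 3 genes most correlated with each tested member. Zone markers, 4931440P22Rik, Aldh3a1, Cyp2s1 and albumin were named after their values were seen. The members and the lists were chosen with earlier results of these data known, so the lists give no independent support. Nothing says that same-group livers differ in litter or batch, and p-values measure the spread between these mice.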

Additional observations from a re-analysis of the deposited data

How the results depend on the processing

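The number of tested members called was 2 between HFD and ND, 1 between CLE and ND, 1 between LU and ND, 2 over all 4 groups, and 0 in the other comparisons. It remained 0 in CLE against HFD and in CLE against LU under every alternative run. Between HFD and ND it was 1 with median-of-ratios scaling, with quantile normalization, with the transcript of highest mean and with the clock covariate. In LU against HFD it was 1 with the transcript of highest mean. Between CLE and ND it was 0 with the clock covariate. Between LU and ND it was 0 with no filter, median-of-ratios scaling, GC-content correction or the clock covariate, and 2 with the transcript of highest mean. Over all 4 groups it was 1 with no filter, median-of-ratios scaling, quantile normalization, or no filter with a pseudocount of 0.1, and 0 with GC-content correction or the clock covariate. The cause was not tested. With single mice left out it ranged from 0 to 2 for HFD against ND (0 without HFD mouse 18), from 1 to 2 for CLE against ND, from 0 to 1 for LU against ND and from 0 to 2 over all 4 groups. Of 153 values under alternatives for Ahr (HFD and CLE against ND, LU against HFD) and Cyp1a2 (HFD, CLE and LU against ND), 126 kept their direction and side of the threshold, 21 lost the call, 5 gained it and 1 reversed, namely Ahr between CLE and ND, at -0.053 with the transcript of highest mean. Outside these values, differences not called as deposited also changed sign. With the transcript of highest mean, Ahr was -1.08 between LU and ND, past the threshold (adjusted p = 0.035 by limma), Arnt was 0.36 between CLE and HFD and 0.32 between CLE and LU, and Tiparp was -0.08 between HFD and ND, -0.26 between CLE and ND and -0.32 between LU and ND. Tiparp also turned negative in CLE and in LU against ND with quantile normalization, and positive in both against HFD with GC-content correction. Over all genes, 1400 were called between HFD and ND, and 490 with the clock covariate. The covariate took the calls from 698 to 9 for CLE and from 119 to 16 for LU against HFD. Against ND it took them from 3119 to 6 for CLE and from 1727 to 16 for LU. A call lost with it is thus shared by most called genes.

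Mouse numbers are shared by some ND, CLE and LU mice and by no HFD mouse, and the labels name no shared litter. Deviations of same-numbered mice correlated from -0.259 to 0.183 in 5 pairs, against -0.158 to 0.215 in 22 pairs of other numbers, so the numbers were not taken to pair the mice. With the number as a block, 0 members were called between CLE and ND (Cyp1a2 1.05, adjusted p = 0.059 by limma), 0 between LU and ND (1.38, 0.065) and 0 between CLE and LU. This fit left out the HFD mice and has few degrees of freedom. CLE mouse 11 and LU mouse 8 share their number with no other mouse, so they added nothing to its group differences. The lost calls therefore say nothing on whether the numbers pair the mice. Depth is unknown, which limits what the values near 0 for Ahrr, Cyp1a1 and Cyp1b1 can show.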
